A study of Mus musculus with 6 samples.

Results

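The interferon response genes examined here are 43 genes, chosen by symbol, out of the 24054 gene rows of an RNA-seq series of mouse embryonic stem (ES) cells. They comprise the chains of the type I interferon receptor, the kinases and transcription factors behind it, and genes that interferon switches on, and each was read from the sense-strand counts. ES cells are pluripotent cells that are kept in culture, and Morc3 is an ATPase of the MORC family that the study examined as a silencer of endogenous retroviruses. The series compares 3 Morc3 knock-out (ko) libraries with 3 wild-type libraries.

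The ko libraries come from the lines KO27-1, KO27-2 and KO27-3, which are called ko clone 1, 2 and 3 here. Each is a single clone made with Cas9 and guide RNA from the wild-type line wt26. A difference between ko and wild type therefore cannot be told apart from a difference between clones and their parent line. The wild-type libraries come from cultures of wt26 that the titles name p42, p43 and p56. All cells grew without feeder cells on gelatin in medium with serum and LIF, and the labels name no interferon treatment. The 3 wild-type libraries share 1 line, and nothing states how far apart in culture they were taken, so p-values measure the spread between these libraries only.

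Type I interferons are secreted proteins that bind a receptor made of the chains Ifnar1 and Ifnar2. The kinases Jak1 and Tyk2, which sit on these chains, then phosphorylate Stat2, which joins Irf9 in the factor ISGF3. ISGF3 binds a DNA element called ISRE (interferon-stimulated response element) in front of the stimulated genes, and a further element, called GAS, is found in front of genes that respond to interferon. The stimulated genes encode proteins that block viral entry, degrade or edit viral RNA, or arrest translation. Pluripotent cells are known for a weak response to interferon and for expressing part of these genes without it.

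To show what separates the members in sequence, their promoters were searched for both elements on both strands. Promoters were windows from 250 bases before to 50 bases after each RefSeq transcription start (GRCm38.p6). The table held a promoter for 36 of the 43 members, and not for Mx1, Mx2, Oas1b, Oas2, Parp9, Parp14 and Ifi27. ISRE matches, the letters GAAA repeated after any 2 bases, were found in 15 of the 36 members (41.7%), against 3.99% of all 27025 genes with a promoter in the table. The GAS letters TTCNNNGAA were found in 13 of the 36 members (36.1%), against 9.55% of all genes. The members were collected as interferon genes, so these shares describe the choice of members. Single matches can overlap each other, as they do in Oas1a.

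Not every member with an ISRE match is printed, and Oas1c is among those left out. The following stretches belong to Oas1a and Ifitm3, which passed the test of ko against wild type below. They are shown with those of Oas1g and Ifitm2, which did not pass it, and of the silent gene Ifit1. Each runs 5′ to 3′ on the strand of its gene, ISRE matches are in capitals, and a match on the other strand reads TTTC first. The first 4 stretches are the 120 bases before the start, on GRCm38.p6: Oas1a at chr5:120907526-120907645 (minus strand), Oas1g at chr5:120887614-120887733 (minus strand), Ifitm2 at chr7:140955962-140956081 (minus strand) and Ifit1 at chr19:34640769-34640888 (plus strand). The stretch of Ifitm3 at chr7:141010716-141010742 (minus strand) lies after the start, at positions 3 to 29 of the transcript.
Oas1a: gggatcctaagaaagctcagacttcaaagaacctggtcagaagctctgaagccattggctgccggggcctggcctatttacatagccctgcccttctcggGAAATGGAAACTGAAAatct
Oas1g: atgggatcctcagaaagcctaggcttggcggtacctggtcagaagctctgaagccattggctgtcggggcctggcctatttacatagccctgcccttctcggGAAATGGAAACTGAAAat
Ifitm2: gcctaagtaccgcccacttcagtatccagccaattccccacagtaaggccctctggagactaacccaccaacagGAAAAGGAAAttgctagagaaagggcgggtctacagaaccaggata
Ifit1: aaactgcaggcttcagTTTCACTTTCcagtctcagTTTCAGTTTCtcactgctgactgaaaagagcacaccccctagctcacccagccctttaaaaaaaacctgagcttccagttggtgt
Ifitm3: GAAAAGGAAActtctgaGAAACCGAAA

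Oas1a and Oas1g carry the same capital stretch of overlapping matches, and at an offset of 2 bases their upstream sequences were identical in 110 of 120 bases (91.7%). Ifit1 carries a pair of matches on the other strand, beginning at positions -104 and -85 from the start. Ifitm2 carries 1 match, and both matches of Ifitm3 fall into its transcript. Of the 15 members with a match, 9 had enough counts to be tested, with a median level of 1.77 CPM in wild type over all 15. The 21 members without a match had a median of 11.4 CPM in wild type. CPM are counts scaled to a common library size.

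Sense-strand gene counts reached 10740618 to 11525164 in the ko libraries and 13013286 to 14123131 in the wild-type libraries. Morc3 itself was measured at 77.8, 137.9 and 134.6 CPM in ko clones 1, 2 and 3 and at 276.8, 272.0 and 302.2 CPM in the wild-type cultures p42, p43 and p56, which did not overlap. Its log2 fold change was -1.28, and edgeR's quasi-likelihood test gave it an adjusted p of 8.4e-04. In the robust fit the adjusted p was 0.0184, above the threshold of 0.01. The pluripotency markers were high in both groups, with all 8 together at 5950 to 6090 CPM in ko and 5450 to 5580 CPM in wild type. EdgeR called 0 of them at an adjusted p under 0.01, with 2 at an unadjusted p under 0.05, and DESeq2 called 1, Dppa5a (log2 fold change 0.43, edgeR adjusted p 0.0231, DESeq2 adjusted p 2.3e-04). Of the 9 leukocyte markers, Adgre1, Lyz2 and Csf1r had 0 counts in every library and Ptprc had 7 counts in all. The leukocyte list summed to 30.6 to 32.7 CPM in ko and 34.3 to 36.9 CPM in wild type, nearly all of it Laptm5 and Cd68. Among the 9 fibroblast markers Dcn and Postn were at 0 counts, and the list summed to 7.68 to 8.41 CPM in ko and 12.4 to 13.7 CPM in wild type, with Thy1 lower in ko (log2 fold change -0.86, edgeR adjusted p 0.0064). Leaving out any 1 library except p56 ended the call of Thy1, with edgeR adjusted p-values from 0.0181 to 0.0584. The part of these transcripts in the results below was not tested.

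Wild-type p56 stands apart from p42 and p43 in several members. Among the 28 members that could be tested, 2 (7.14%) differed by a fold of 2 or more between p56 and the mean of p42 and p43, with 0.5 CPM added to both. This was the case for 0.867% of all 12222 genes tested. Members that p56 sets apart are given with and without it.

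The question asked of the 43 genes was whether any of them changed with the loss of Morc3. Few of them passed the test. 28 of the 43 members passed the filter on low counts, and 2 of these 28 (7.14%) were called at an adjusted p under 0.01, against 1.28% of all 12222 genes tested. Ifitm3 was higher and Oas1a was lower in ko, where 0.859% and 0.417% of all genes were called in these directions. The median log2 fold change was -0.03 over the 28 members and -0.0001 over all genes. In bulk RNA, fewer cells that express a gene and less RNA per cell cannot be told apart. An unadjusted p under 0.05 was reached by 6 members (21.4%) and by 14.3% of all genes.

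**Figure D1:**
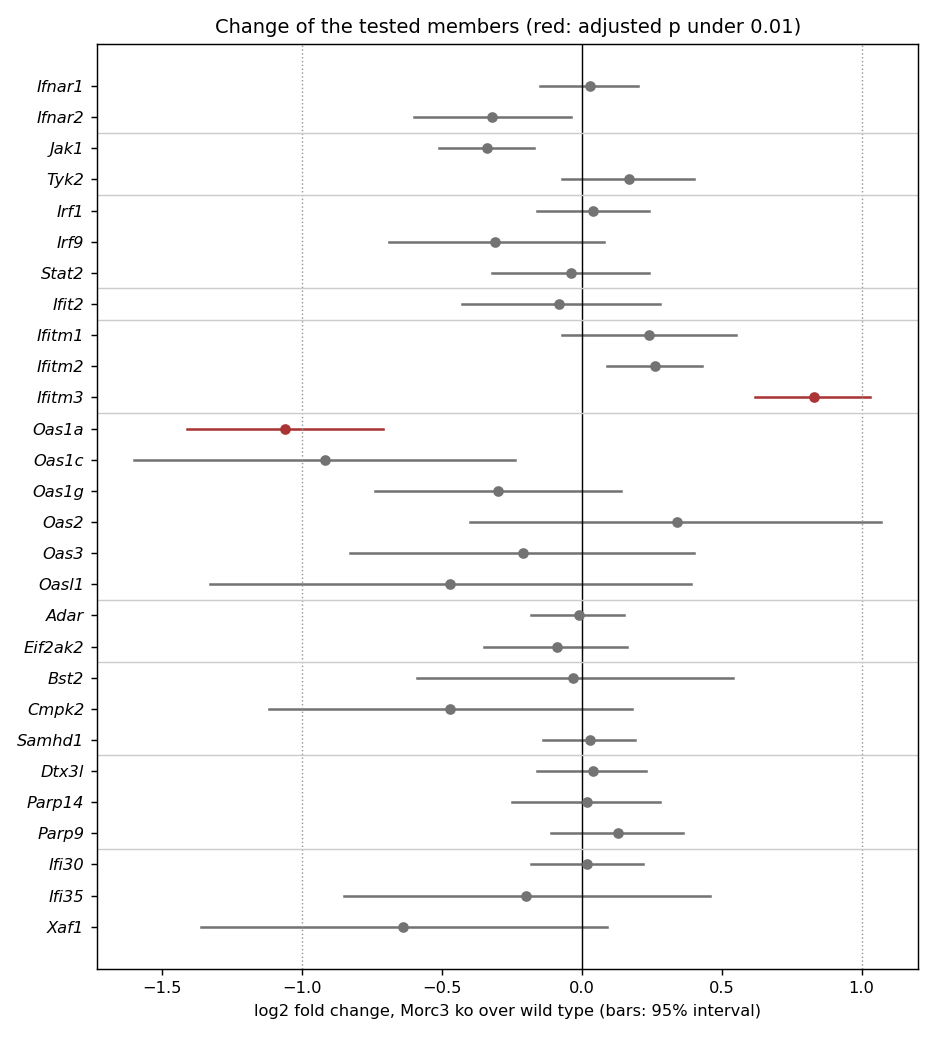
Log2 fold change of the 28 tested members in Morc3 ko over wild type, one row per gene and grouped by role, with bars for the 95% interval and dotted lines at a fold of 2. Ifitm3 at 0.83 and Oas1a at -1.06 (red) are the called members, and 21 of the 26 others have intervals that stay inside a fold of 2.

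For 21 of the 26 members that were not called, the 95% interval of the change stayed inside a fold of 2 in either direction, and for 15 it stayed inside a fold of 1.5. The 5 members with wider intervals were Oas1c, Oas2, Oasl1, Cmpk2 and Xaf1. The ko and wild-type libraries did not overlap with ko higher in 2 members (7.14%, against 9.67% of all genes) and with ko lower in 5 members (17.9%, against 10.2%).

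**Figure D2:**
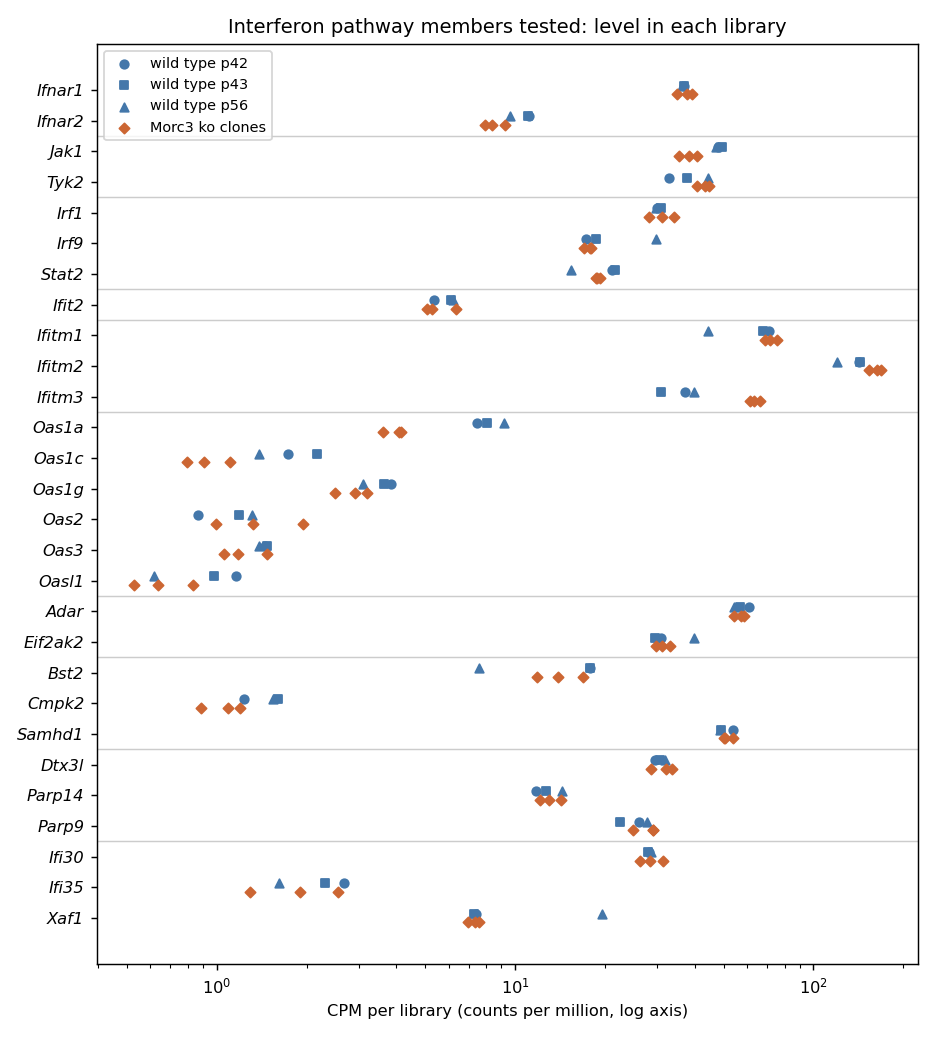
Level of the 28 tested members in each of the 6 libraries in CPM on a log axis, grouped by role, with ko clones as diamonds and the wild-type cultures as blue circles (p42), squares (p43) and triangles (p56). Levels ran from under 1 CPM for Oasl1 to over 100 CPM for Ifitm2, and p56 lies away from the other 5 libraries for Xaf1, Irf9, Ifitm1 and Bst2.

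Both chains of the receptor were expressed in both groups. Ifnar1, the chain on which Tyk2 sits, was measured at 34.9, 39.2 and 37.8 CPM in ko clones 1, 2 and 3 and at 36.9, 36.8 and 36.1 CPM in the wild-type cultures p42, p43 and p56. The groups overlapped, with a log2 fold change of 0.03 (95% interval -0.15 to 0.20). Ifnar2, the chain on which Jak1 sits, was measured at 9.24, 7.95 and 8.35 CPM in ko and at 11.2, 11.1 and 9.65 CPM in wild type. All ko values of Ifnar2 were below all wild-type values, but the log2 fold change of -0.32 (SE 0.13) had an edgeR adjusted p of 0.273 and was not called.

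Of the receptor kinases, Jak1 came closest to the threshold. It was measured at 38.4, 35.4 and 40.7 CPM in ko and at 48.0, 49.5 and 47.2 CPM in wild type. The groups did not overlap, and Jak1 had a log2 fold change of -0.34 (SE 0.08, 95% interval -0.51 to -0.17), for which the edgeR adjusted p was 0.0435. Without p56 Jak1 passed the threshold, at a log2 fold change of -0.35 and an edgeR adjusted p of 0.00874. In that comparison 3 of the 28 members were called, against 3.13% of all genes. Tyk2 was measured at 40.6 to 44.8 CPM in ko and 32.7 to 44.3 CPM in wild type, with a log2 fold change of 0.17 (95% interval -0.07 to 0.40), and 0.29 without p56 (edgeR adjusted p 0.0536). 

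The transcription factors of the pathway were present, except for Irf7. Irf1, which interferon induces and which binds ISRE-like sites, had the highest level per length of the group, at 14.5 CPM per kb of transcript in ko and 14.1 in wild type. Its log2 fold change was 0.04 with an interval from -0.16 to 0.24. Irf9, the DNA-binding part of ISGF3, was measured at 17.1, 18.0 and 17.9 CPM in ko, at 17.2 and 18.7 CPM in wild-type p42 and p43, and at 29.7 CPM in p56. The value of p56 alone lies above the other 5 libraries, which lie within 2 CPM of each other. The log2 fold change of Irf9 was -0.31 with all libraries (edgeR adjusted p 0.492) and -0.02 without p56. Irf9 lies on chromosome 14, where the 412 genes tested had a median log2 ratio of 0.35 between p56 and the mean of p42 and p43, against -0.01 for the genes of the other chromosomes. The part of this shift in the Irf9 value was not tested. Stat2, the transactivating part of ISGF3, was measured at 18.6 to 19.3 CPM in ko and 15.4 to 21.6 CPM in wild type, where p56 was the lowest. Its log2 fold change was -0.04 with all libraries and -0.17 without p56. Irf7, the factor that amplifies the production of interferon, had 0 counts in ko and 2 counts in wild type.

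Among the stimulated genes, the IFITM group was by far the most abundant per length. These small membrane proteins hinder the fusion of viruses with the cell, and their genes lie next to each other on chromosome 7. Ifitm2 reached 248 CPM per kb in ko and 206 in wild type, Ifitm3 93.8 and 52.9, and Ifitm1 81.7 and 69.1. The next member in this order in wild type was Ifi30, a thiol reductase of lysosomes, at 28.7 CPM per kb. Per length, the wild-type levels of Ifitm1 and Ifitm3 overlapped, with more Ifitm1 in p42 and p43 and more Ifitm3 in p56.

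Ifitm3 (chromosome 7, 141009586 to 141010770, minus strand, GRCm38) rose in ko. It was measured at 66.0, 63.3 and 61.5 CPM in ko clones 1, 2 and 3 and at 37.1, 30.8 and 39.7 CPM in the wild-type cultures p42, p43 and p56. Every ko clone was above every wild-type culture, and the ko clones differed from each other by less than the cultures did. The ko clones averaged 63.6 ± 2.24 CPM and the wild-type cultures 35.9 ± 4.57 CPM (SD, n = 3). This gave a log2 fold change of 0.83 (SE 0.09, 95% interval 0.62 to 1.03), for which the edgeR adjusted p was 4.1e-04, and adjusted p-values ranged from 2.7e-11 to 0.00635 over the alternatives, so that Ifitm3 was called under all 13 of them. Of the 50-base stretches of its transcript, 10.0% also occur in transcripts of other genes.

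The neighbours of Ifitm3 were not called. Ifitm2 was measured at 168.6, 163.8 and 154.1 CPM in ko and at 142.4, 143.5 and 119.6 CPM in wild type. Its groups did not overlap either, and the log2 fold change of 0.26 (SE 0.08) had an edgeR adjusted p of 0.129. Of the 50-base stretches of Ifitm2, 48.5% are shared with transcripts of other genes, most of them with Gm45717, which is not among the gene rows. Ifitm1 was measured at 75.7, 71.6 and 68.8 CPM in ko and at 70.8, 67.8 and 44.2 CPM in wild type. Here p56 alone was low, and the log2 fold change went from 0.24 with all libraries to 0.06 without p56. Within 100 kb of Ifitm3, 7 genes were tested and 0 were called by edgeR at an adjusted p under 0.01, with log2 fold changes from -0.01 to 0.38.

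The rise of Ifitm3 was also set against its neighbours within each library. The ratio of Ifitm3 to Ifitm2 counts was 0.391, 0.386 and 0.399 in ko and 0.260, 0.215 and 0.332 in wild type, which did not overlap. The difference in the mean log2 ratio was 0.57, with p = 0.1 in a two-sided exact permutation test, the smallest value 3 against 3 libraries allow. The ratio of Ifitm3 to Ifitm1 was 0.872 to 0.894 in ko and 0.524, 0.455 and 0.899 in the wild-type cultures p42, p43 and p56, so that p56 overlapped with ko (exact permutation p = 0.4). After adjustment over the 4 ratios computed, the Benjamini-Hochberg values of these exact tests were 0.2 and 0.533. In each of the 4 ratios the numerator is a called member, Ifitm3 or Oas1a. The ratios are therefore no test apart from those calls.

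**Figure D3:**
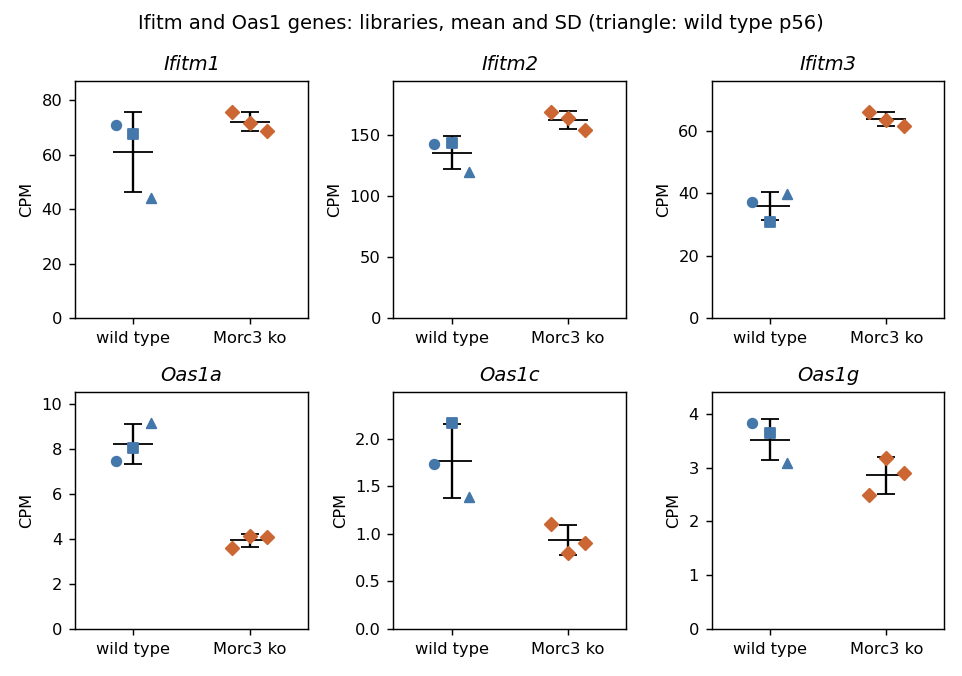
CPM of 3 Ifitm and 3 Oas1 genes in each library on linear axes from 0, with the mean (wide line) and SD (whiskers) of 3 libraries per group; circles, squares and triangles are wild-type p42, p43 and p56 and diamonds are ko clones. Ifitm3 is higher and Oas1a lower in all 3 ko clones than in any wild-type culture, while Oas1g and Ifitm1 overlap between the groups.

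Active enzymes of the OAS family make 2′-5′ oligoadenylates when they meet double-stranded RNA, and these activate the nuclease RNase L. Of its 8 members 6 were tested, all at low levels. The summed level of all 8 was 10.8 to 11.6 CPM in ko and 16.8 to 17.6 CPM in wild type. This sum leans on Oas1a, with a mean of 3.95 CPM in ko and 8.23 CPM in wild type. Of the tested members only Oas2 had a higher mean in ko, at 1.42 against 1.12 CPM. The median log2 fold change of the 6 tested members was -0.39. Oas1a and Oas1g, which encode synthetases, were the members with the highest level per length.

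Oas1a (chromosome 5, 120896256 to 120907521, minus strand, GRCm38) fell in ko. It was measured at 3.60, 4.15 and 4.08 CPM in ko clones 1, 2 and 3 and at 7.46, 8.05 and 9.19 CPM in the wild-type cultures p42, p43 and p56. These values rest on 39, 47 and 45 counts in ko and 103, 115 and 119 counts in wild type, and the groups lie well apart. The ko clones averaged 3.95 ± 0.298 CPM and the wild-type cultures 8.23 ± 0.879 CPM (SD, n = 3). This gave a log2 fold change of -1.06 (SE 0.16, 95% interval -1.41 to -0.71), for which the edgeR adjusted p was 0.00324. The call was lost when ko clone 1, 2 or 3 or wild-type p43 was left out, with adjusted p-values of 0.0208, 0.0246, 0.0261 and 0.0108, and the log2 fold change then lay between -0.99 and -1.09.

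Oas1g is the gene most like Oas1a, and 57.6% of the 50-base stretches of the Oas1a transcript also occur in Oas1g. A read pair from a shared stretch that maps to both genes was not counted for either, so the counts of both rest on the parts that differ. Oas1g was measured at 2.50, 3.18 and 2.90 CPM in ko and at 3.84, 3.64 and 3.09 CPM in wild type. The groups overlapped, and the log2 fold change of -0.30 (SE 0.20, 95% interval -0.74 to 0.14) had an edgeR adjusted p of 0.575. The count ratio of Oas1a to Oas1g was 1.44, 1.31 and 1.41 in ko and 1.94, 2.21 and 2.98 in wild type. These ratios did not overlap, and the difference in the mean log2 ratio was -0.76 (two-sided exact permutation p = 0.1, adjusted 0.2).

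Oas1c was measured at 1.11, 0.795 and 0.908 CPM in ko and at 1.74, 2.17 and 1.39 CPM in wild type. All ko values were lower, and the log2 fold change of -0.92 (SE 0.31, 95% interval -1.60 to -0.24) had an edgeR adjusted p of 0.184. The count ratio of Oas1a to Oas1c overlapped between the groups, at 3.25 to 5.22 in ko and 3.71 to 6.61 in wild type (exact permutation p = 0.7). Within 100 kb of Oas1a only Oas1c and Oas1g had enough counts to be tested, and neither was called. The other tested genes of the family were Oas2, Oas3 and the related Oasl1. Their log2 fold changes were 0.34, -0.21 and -0.47, with 95% intervals from -0.40 to 1.07, from -0.83 to 0.40 and from -1.33 to 0.39. For Oas2 and Oasl1 the interval reached past a fold of 2, so the values leave room for a change of that size. Oas1b, which the GENCODE annotation lists as a polymorphic pseudogene, had 9 counts in all 6 libraries, and Oasl2 had 5.

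The other RNA-directed effectors are the editing enzyme Adar and the kinase Eif2ak2 (PKR), which halts translation when it binds double-stranded RNA. Adar was measured at 54.4 to 58.7 CPM in ko and 54.0 to 60.8 CPM in wild type, with a log2 fold change of -0.01 (95% interval -0.18 to 0.15). Eif2ak2 was measured at 33.1, 29.7 and 31.0 CPM in ko and at 30.9, 29.4 and 39.9 CPM in the wild-type cultures p42, p43 and p56. Its log2 fold change was -0.09 with all libraries and 0.05 without p56, and neither gene was called. The exonuclease gene Isg20 had 0 counts in ko and 4 in wild type.

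Of the IFIT genes, whose proteins bind foreign RNA ends and hold back translation, only Ifit2 was tested. It was measured at 5.08, 6.36 and 5.26 CPM in ko and at 5.36, 6.09 and 6.18 CPM in wild type, so that the groups overlapped, with a log2 fold change of -0.08 (95% interval -0.43 to 0.28). Ifit1, with its pair of ISRE matches printed above, had 1 count in all 6 libraries. Ifit3 had 7 counts, and 51.2% of its 50-base stretches are shared with Ifit3b.

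Among the effectors at membranes, capsids and nucleotide pools, Samhd1 and Bst2 had the highest levels per length. Samhd1, which degrades the nucleotides that reverse transcription needs, was measured at 50.1 to 53.9 CPM in ko and 48.5 to 53.9 CPM in wild type. Its log2 fold change was 0.03 with an interval from -0.14 to 0.19. Bst2 (tetherin), which holds budding virus particles at the cell surface, was measured at 16.9, 11.8 and 13.9 CPM in ko and at 17.8, 17.8 and 7.57 CPM in the wild-type cultures p42, p43 and p56. The culture p56 was below all other libraries, and leaving it out moved the log2 fold change from -0.03 to -0.33 (edgeR adjusted p 0.155), still not called. Cmpk2, a nucleotide kinase of mitochondria, was measured at 0.883 to 1.20 CPM in ko and 1.23 to 1.61 CPM in wild type. The groups did not overlap, but the log2 fold change of -0.47 (SE 0.30) had an edgeR adjusted p of 0.544. Rsad2 (viperin), which lies beside Cmpk2 on chromosome 12 and makes an altered nucleotide that stops viral RNA synthesis, had 4 counts in ko and 10 in wild type. Mx1 and Mx2, genes of a family of antiviral GTPases, had 0 counts in every library, and the GENCODE annotation lists Mx2 as a polymorphic pseudogene.

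Parp9, Parp14 and the ubiquitin ligase Dtx3l, which pairs with Parp9, were all expressed. Parp9 was measured at 24.9, 29.0 and 29.0 CPM in ko and at 25.9, 22.4 and 27.6 CPM in wild type, with a log2 fold change of 0.13 (95% interval -0.11 to 0.36). Dtx3l was measured at 28.5 to 33.7 CPM in ko and 29.4 to 31.7 CPM in wild type, and its log2 fold change was 0.04. Parp14 had a log2 fold change of 0.02 with an interval from -0.25 to 0.28. Parp9 shares 9.09% of its 50-base stretches with Dtx3l, read on either strand, and both genes had counts on the opposite strand that amounted to 8.86% and 4.44% of their sense counts. Together with Jak1 (3.85%) they were the members with enough opposite-strand counts to be tested, and 0 of these 3 were called by edgeR, with 0 at an unadjusted p under 0.05.

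The remaining stimulated members were Ifi30, Xaf1 and Ifi35, with Ifi27, Ifi44 and Lgals3bp below the filter. Ifi30 was measured at 26.2 to 31.3 CPM in ko and 27.9 to 28.5 CPM in wild type, with a log2 fold change of 0.02 (95% interval -0.18 to 0.22). Xaf1, a gene linked to cell death that binds the apoptosis inhibitor Xiap, was measured at 6.93, 7.59 and 7.35 CPM in ko and at 7.39, 7.28 and 19.6 CPM in the wild-type cultures p42, p43 and p56. It was 2.57-fold higher in p56 than in the mean of p42 and p43, and only 0.245% of all genes tested differed at least as far between these cultures. The log2 fold change between ko and wild type was -0.64 with all libraries (edgeR adjusted p 0.426) and -0.01 without p56. Ifi35, which interferon induces and which pairs with Nmi, had a log2 fold change of -0.20 with an interval from -0.85 to 0.46.

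**Figure D4:**
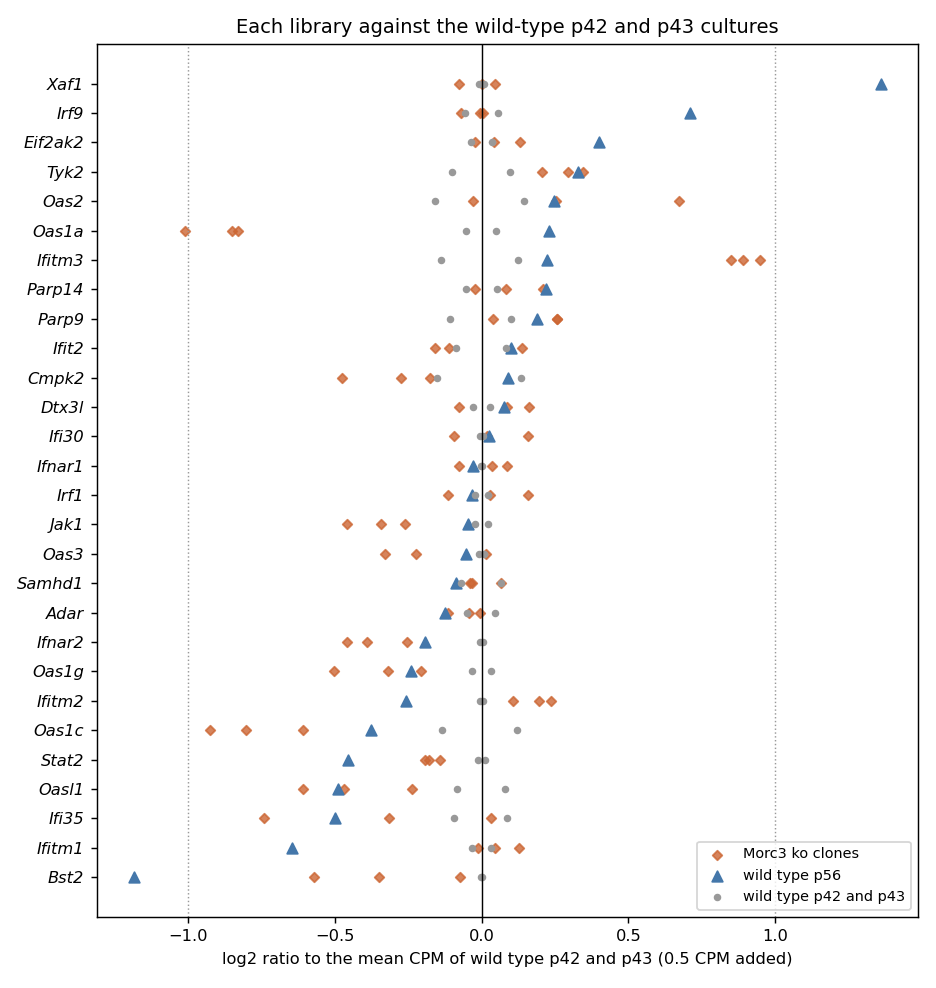
Distance of every library from the average of wild-type p42 and p43, as a log2 ratio, for the 28 tested members, with 0.5 CPM added, sorted by the value of p56 (triangles); diamonds are ko clones and small grey points are p42 and p43. Xaf1 at 1.36 and Bst2 at -1.18 in p56 are past a fold of 2 (dotted lines), while the 3 ko clones stay near p42 and p43 for Xaf1 and Irf9.

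The spread within groups was compared last. The median SD of the log2 level, with 0.5 CPM added, was 0.110 over the 28 members in ko and 0.150 in wild type, against 0.107 and 0.119 over all genes. In 18 of the 28 members the wild-type cultures spread more than the ko clones. Over p42 and p43 alone, which are only 2 libraries, the median SD was 0.0595 for the members and 0.0608 for all genes. The SD over these 2 cultures exceeded that of the ko clones in 8 members. No share over all genes is given for the counts of 18 and 8 members. With p56 included, the median over all genes was also larger in wild type. The counts are not read as a trait of the members, which was not tested.

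The 15 members under the filter were close to silent. Mx1, Mx2 and Ifi44 had 0 counts in every library, which allows a level of up to 0.0904 CPM in ko and 0.0731 CPM in wild type when 3 counts are taken over the libraries of a group, counting error only. The other 12 had 1 to 25 counts over all 6 libraries. Ifi27, a small protein of mitochondria and the nuclear envelope, had 5 counts in ko and 20 in wild type. The guanylate-binding proteins, GTPases that attack the vacuoles of pathogens, were at or below 5 counts each, with 5 for Gbp2, 2 for Gbp3 and 5 for Gbp7. Lgals3bp, a secreted glycoprotein, had 1 count. All 15 together had 22 counts in ko and 58 in wild type, which is 0.663 and 1.41 CPM. No fold is given for single genes at these counts.

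To place the members in the wider pathway, 4 further lists of genes were counted in the same comparison. The lists hold 126 genes, of which 124 were found among the gene rows and 49 were tested. At an adjusted p under 0.01, 0 of the 49 were called by edgeR, against 1.28% of all genes. An unadjusted p under 0.05 was reached by 9 of the 49 (18.4%, against 14.3% of all genes), each of them with a higher value in ko, a direction in which 6.42% of all genes reached it. DESeq2 called 2 of the 64 list genes it gave an adjusted p (3.12%, against 1.79% of all genes). The 2 genes called by DESeq2 were Pml, the organizer of PML nuclear bodies, and Trim24, a repressor of interferon signalling, with edgeR log2 fold changes of 0.54 (adjusted p 0.0145) and 0.43 (adjusted p 0.0182). The median log2 fold change of the 49 genes was 0.02.

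All 21 genes of interferon ligands, of the alpha, beta, epsilon, kappa, zeta, gamma and lambda types, had 0 counts in every library. Pairs that map to several places were not counted, and sharing of sequence with other genes was examined only for the members. For the genes of these lists, 0 counts alone therefore cannot tell a silent gene from one whose reads were left out. Of the 11 other receptor chains and JAK-STAT genes 8 were tested, with a median log2 fold change of 0.00. The highest per length were Stat3, a factor that LIF activates, at 113 ± 4.41 CPM in ko and 115 ± 1.41 CPM in wild type, and Irf3, which induces interferon, at 32.2 ± 1.76 and 31.0 ± 1.17 CPM (SD, n = 3). Of 15 negative regulators 14 were tested, with a median of 0.01, and the highest per length were Pias2, a SUMO ligase, at 157 ± 6.85 CPM in ko and 155 ± 10.5 CPM in wild type, and Socs3, an inhibitor of cytokine receptors, at 121 ± 18.7 and 122 ± 2.83 CPM (SD, n = 3).

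Of 77 other stimulated genes found 27 were tested and 22 had 0 counts throughout, with a median log2 fold change of 0.08 among the tested. The highest per length were Pnpt1, an RNA-degrading enzyme of mitochondria, with a log2 fold change of 0.29 (edgeR adjusted p 0.184), and Phf11d, with 0.08 (edgeR adjusted p 0.881). Without p56 their log2 fold changes were 0.42 (edgeR adjusted p 3.3e-04) and 0.36 (edgeR adjusted p 0.00298), and 4 of 51 list genes tested were called (7.84%, against 3.13% of all genes). These lists hold neither Ddx58, a sensor of foreign nucleic acids, nor Ube2l6, a conjugating enzyme of Isg15. Both were called higher in ko, with log2 fold changes of 0.82 (edgeR adjusted p 0.00163) and 4.09 (edgeR adjusted p 9.1e-07). Other genes of nucleic acid sensing and Isg15 conjugation are in the lists, among them Zbp1, Herc6 and Trim25. Of these, Trim25 alone was tested, with a log2 fold change of 0.12 (edgeR adjusted p 0.67), and Zbp1 and Herc6 were under the filter. Ddx58 was not called without ko clone 2 or 3, with edgeR adjusted p-values of 0.0200 and 0.0206, and Ube2l6 was called in each fit. Ddx58 and Ube2l6 were chosen after their values were seen, and their groups were not counted as such here. They therefore give no share for those groups, and of all genes 0.859% were called higher in ko. A Morc3 peak in an endogenous retroviral element at Ube2l6 was reported by the study.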

How the data were processed

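RNA of 3 Morc3 ko clones and 3 wild-type cultures was depleted of ribosomal RNA and sequenced as stranded paired-end libraries. The authors aligned the reads to mm10 with STAR, which counted reads per gene. The deposited values are raw counts per gene and library, with no normalization. STAR counts only pairs that map to 1 place and overlap 1 gene. The gene annotation is not given in the sources used here. The share of reads that mapped to several places was 16.3% to 17.4%, and these and other unassigned reads were left out of library totals.

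The sense column, the one with the larger total, was tested with edgeR 4.0.16 (quasi-likelihood test, TMM, filterByExpr at its default minimums of 10 counts and 15 counts in total, prior count 0.125) in R 4.3.3. Two-sided p-values received a Benjamini-Hochberg adjustment over all 12222 genes tested, and genes under 0.01, the threshold of the study, were called. The study tested genes with DESeq2, which is an alternative here. CPM were computed from the counts with TMM-scaled totals. Levels per kb used the longest coding GENCODE M21 transcript, or the longest of any type for Ifi30, and are approximate. Positions came from GENCODE M21 (GRCm38, the assembly of mm10) by symbol, and promoters from RefSeq. Sharing of 50-base stretches was counted over GENCODE transcripts. The fit was tested on simulated data. 1 count is worth 0.0700 to 0.0924 CPM, depending on the library.

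Every member is accounted for. Called members are given in full, and uncalled members with values are the 2 highest per length in each role group and the 5 with the smallest adjusted p, while further members were described for completeness after their values were seen. In the pathway lists, the named genes are those called and the 2 highest per length. Pml, Trim24, Ddx58, Ube2l6, Zbp1, Herc6 and Trim25 were named after their values were seen. The members and lists were chosen with earlier results of these data known. In the lists, 2 genes, Trim5 and Rnf213, had no row. Alternatives were RLE factors, DESeq2 1.42.0, limma-voom (limma 3.58.1), no filter, counts that ignore strand, a robust fit, a threshold of 0.05 and leaving out each library.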

Additional observations from a re-analysis of the deposited data

How the results depend on the processing

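The count of 2 called members was 2 under RLE factors, DESeq2, limma-voom, no filter, counts that ignore strand and the robust fit, and 3 at an adjusted p under 0.05, and it ranged from 1 to 3 when single libraries were left out. Ifitm3 was among the called members each time. Oas1a was not called without ko clone 1, 2 or 3 or without wild-type p43, where fewer libraries were compared. Jak1 was added without p56 and at the threshold of 0.05. The count of called pathway list genes was 0, and became 2 under DESeq2, 2 with no filter on low counts, 2 at an adjusted p under 0.05, and 0 to 4 when single libraries were left out, with 4 (Trim24, Pml, Phf11d and Pnpt1) without p56. The cause of these shifts was not tested. Of all genes, DESeq2 called 1.79% and the fit without p56 called 3.13%. For the other settings no share over all genes is given, so those counts cannot be set against one. The log2 fold change of Morc3 was -1.28 in the robust fit too, but its adjusted p rose to 0.0184, and the cause was not tested; it ranged from -1.05 to -1.42 with single libraries left out. No log2 fold change of the 7 members followed across settings (Ifitm3, Oas1a, Jak1, Ifitm2, Oas1c, Ifnar2 and Xaf1) changed sign. Of the other tested members, 11 changed sign under at least 1 setting, each with a log2 fold change of at most 0.2 in size and 0 of them called under any setting. No setting moved the median of all tested genes by more than 0.005. No paired analysis was possible because the ko and wild-type samples share no replicate numbers. With 3 libraries per group, the intervals of Oas1c, Oas2, Oasl1, Cmpk2 and Xaf1 reached past a fold of 2, and the 15 members under the filter were not tested.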
